A study of Mus musculus with 9 samples.

Results

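The 37 genes described here encode soluble hydrolases of the lysosome, proteins of its membrane, subunits of its proton pump and the transcription factors Tfeb and Tfe3. They were listed by function and matched by gene symbol: a probe set, the group of array features that reads a transcript, counted for a gene if the platform annotation gave it that symbol alone. All 37 had a probe set, of 18193 genes with such a probe set on the array. Each gene was read from its brightest probe set on average, and all 37 passed the filter on low signals, which left 12586 genes to test. Levels are MAS5 signals, the scanner software's linear brightness units, and are compared between arrays for the same probe set and never between genes. Differences are of log2(signal + 16), which understates changes at low signals.

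Messenger RNA had been measured on 9 Affymetrix mouse arrays, in 3 groups of 3. KO DNA stands for STING knockout dendritic cells given tumor-cell DNA with the lipid reagent Lipofectamin for 7 h, WT DNA for wild-type cells treated the same way, and WT media for unstimulated wild-type cells. All were 129/SvEv cells grown from bone marrow with the growth factor GM-CSF, a culture that yields dendritic and macrophage-like cells together. Untreated knockout cells, and cells that received the reagent without DNA, were not analysed here, so DNA and reagent cannot be told apart. Arrays are numbered 1 to 3 in each group, with no statement that the numbers stand for separate mice or cultures, so the p-values rest on a spread that may be technical. In such bulk cultures, fewer cells of a type and less RNA per cell cannot be told apart.

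Lysosomes are acidic compartments in which proteins, sugar chains and lipids taken up or made by the cell are degraded. A proton pump acidifies the lumen, heavily glycosylated proteins line the membrane, and most soluble hydrolases are sorted there by a mannose phosphate tag. TFEB and its relative TFE3 are basic helix-loop-helix factors known to switch on many lysosomal genes through promoter sites centred on CACGTG. In dendritic cells the lysosome also cuts antigens for presentation. STING is the membrane adaptor that relays detection of cytosolic DNA to interferon genes.

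RefSeq promoter windows on GRCm38.p6, 250 bases before to 50 after the gene start, were available for 32 of the 37 members. Asah1, Atp6v0d2, Atp6v1h, Ctsb and Ctsh had none. The windows below belong to the members with the steadiest calls in this study (Gla, Lamp2, Ctsc, Manba and Gusb) and to Ctsa and Cln3, as examples of members that hold the motif repeatedly. Ctsa and Cln3 each had another window, at another start, which held 0 CACGTG and is not printed. These lay at chr2:164832622-164832921 and chr7:126585768-126586067. Capitals mark CACGTG, which reads the same on both strands.
Gla, chrX:134600956-134601255, minus strand: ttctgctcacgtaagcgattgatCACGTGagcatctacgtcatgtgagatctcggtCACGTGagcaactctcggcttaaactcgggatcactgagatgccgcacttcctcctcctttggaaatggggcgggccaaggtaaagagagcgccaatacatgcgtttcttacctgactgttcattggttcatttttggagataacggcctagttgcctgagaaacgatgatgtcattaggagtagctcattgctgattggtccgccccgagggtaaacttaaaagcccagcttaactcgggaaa
Lamp2, chrX:38456411-38456710, minus strand: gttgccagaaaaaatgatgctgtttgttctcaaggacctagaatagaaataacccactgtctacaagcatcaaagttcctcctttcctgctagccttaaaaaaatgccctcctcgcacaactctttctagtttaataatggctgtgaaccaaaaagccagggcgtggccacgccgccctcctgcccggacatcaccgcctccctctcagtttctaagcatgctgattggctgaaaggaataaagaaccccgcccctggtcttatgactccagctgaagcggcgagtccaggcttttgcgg
Ctsc, chr7:88277835-88278134, plus strand: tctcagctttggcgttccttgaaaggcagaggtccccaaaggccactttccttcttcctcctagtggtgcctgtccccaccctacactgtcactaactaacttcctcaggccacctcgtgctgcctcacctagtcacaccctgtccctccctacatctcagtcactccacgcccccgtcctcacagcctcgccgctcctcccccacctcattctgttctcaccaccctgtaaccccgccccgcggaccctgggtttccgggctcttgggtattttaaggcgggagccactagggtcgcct
Manba, chr3:135485361-135485660, plus strand: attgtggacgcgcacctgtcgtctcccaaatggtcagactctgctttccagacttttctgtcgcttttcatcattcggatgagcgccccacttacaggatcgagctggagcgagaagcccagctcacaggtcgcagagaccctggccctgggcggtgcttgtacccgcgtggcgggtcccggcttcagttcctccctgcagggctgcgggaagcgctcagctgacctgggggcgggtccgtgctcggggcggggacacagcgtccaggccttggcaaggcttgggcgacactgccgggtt
Gusb, chr5:130003000-130003299, minus strand: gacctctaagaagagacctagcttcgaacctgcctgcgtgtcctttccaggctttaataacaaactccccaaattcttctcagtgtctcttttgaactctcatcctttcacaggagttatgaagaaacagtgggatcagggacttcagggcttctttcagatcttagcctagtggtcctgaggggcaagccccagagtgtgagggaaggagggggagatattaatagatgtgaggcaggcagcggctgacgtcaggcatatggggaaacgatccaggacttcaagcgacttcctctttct
Ctsa, chr2:164833523-164833822, plus strand: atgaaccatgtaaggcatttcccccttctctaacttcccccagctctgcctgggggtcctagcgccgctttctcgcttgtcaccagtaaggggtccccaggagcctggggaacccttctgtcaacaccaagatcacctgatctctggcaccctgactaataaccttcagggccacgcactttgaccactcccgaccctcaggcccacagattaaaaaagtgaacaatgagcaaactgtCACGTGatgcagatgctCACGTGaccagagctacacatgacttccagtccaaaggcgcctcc
Cln3, chr7:126583187-126583486, minus strand: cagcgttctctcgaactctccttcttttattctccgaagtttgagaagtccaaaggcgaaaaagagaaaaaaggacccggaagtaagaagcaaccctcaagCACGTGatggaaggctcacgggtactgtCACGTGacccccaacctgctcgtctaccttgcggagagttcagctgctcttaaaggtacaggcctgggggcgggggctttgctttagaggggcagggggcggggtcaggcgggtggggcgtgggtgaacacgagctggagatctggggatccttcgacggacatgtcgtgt

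CACGTG stood in the windows of 12 of the 32 members (37.5%), against 2187 of 27025 genes (8.09%) in the same table, counting a gene if any of its windows held it. The 12 were Gla, Ctsl, Ctsa, Naglu, Arsa, Lamp1, Ctsd, Glb1, Atp6v0d1, Atp6v1a, Mcoln1 and Cln3. The longer palindrome TCACGTGA, which contains CACGTG, stood in 7 members (21.9%), against 1.12% of genes. For tumor DNA against media in wild type, CACGTG lay in 2 of the 4 members called higher (Gla and Ctsl), 3 of the 6 called lower that had a window (Ctsa, Naglu and Arsa) and 7 of the 22 not called. Between genotypes it lay in 0 of the 3 members called higher that had a window, 2 of the 5 called lower (again Gla and Ctsl) and 10 of the 24 not called. TTCNNNGAA, a palindromic core of sites for STAT factors, which act in interferon signalling, stood in 3 members (Ctsc, Arsa and Cln3, 9.4%), against 9.55% of genes. These matches describe letters in a short window and are not measured binding sites.

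All 9 arrays shared a trimmed mean of 499.8, while the strongest signals differed by group: the 99th percentile was 13227 to 14575 in KO DNA, 15979 to 16994 in WT DNA and 13495 to 14330 in WT media. Arrays within a group correlated at r = 0.955 to 0.978 across genes. Sting1, the targeted gene, read 246, 336 and 327 in KO DNA arrays, 2258, 1061 and 1158 in WT DNA arrays, and 1524, 1081 and 646 in WT media arrays. The knockout arrays were the lowest throughout, with a log2 difference from WT DNA of -2.17 ± 0.35 (SE, adjusted p = 0.0016). Against WT media the difference was -1.72 ± 0.35 (SE, limma adjusted p = 0.094), which did not pass although the arrays did not overlap. A missing call in that comparison can thus go with a large difference. These values are from 1 of 2 Sting1 probe sets, the brighter. The position of this probe set relative to the deletion was not checked.

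In wild-type cells, 11 of the 37 members passed the test for tumor DNA against media (29.7%, limma adjusted p below 0.05), where 33.6% of all genes tested did. Gla, Lamp2, Ctsc and Ctsl rose. Manba, Gusb, Idua, Naglu, Arsa, Ctsa and Asah1 fell. By direction, 4 of 37 rose against 9.94% of all genes, and 7 fell against 23.6%, so the members were called at about the background rate. Their median log2 difference was -0.19, beside -0.20 for all genes tested. WT DNA and WT media arrays did not overlap for 18 members (46.4% of all genes), 7 higher (15%) and 11 lower (31.4%).

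Between the genotypes under tumor DNA, 9 members passed (24.3%), where 31.5% of all genes did. Manba, Gusb, Asah1 and Idua were higher in knockout cells (21.8% of all genes were higher), and Lamp2, Gla, Ctsc, Ctsl and Ppt1 were lower (9.73% of all genes were lower). The median of the members was 0.17, beside 0.20 for all genes tested. KO DNA and WT DNA arrays did not overlap for 17 members (46% of all genes), 9 higher (31.3%) and 8 lower (14.7%). Both comparisons use the same WT DNA arrays, so an unusual WT DNA value moves a gene oppositely in each, and the mirrored values below are not independent of each other. For knockout cells with DNA against wild-type cells in media, 0 members and 0.429% of genes passed in limma (2 members and 7.53% of genes at an unadjusted p below 0.05).

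**Figure D1:**
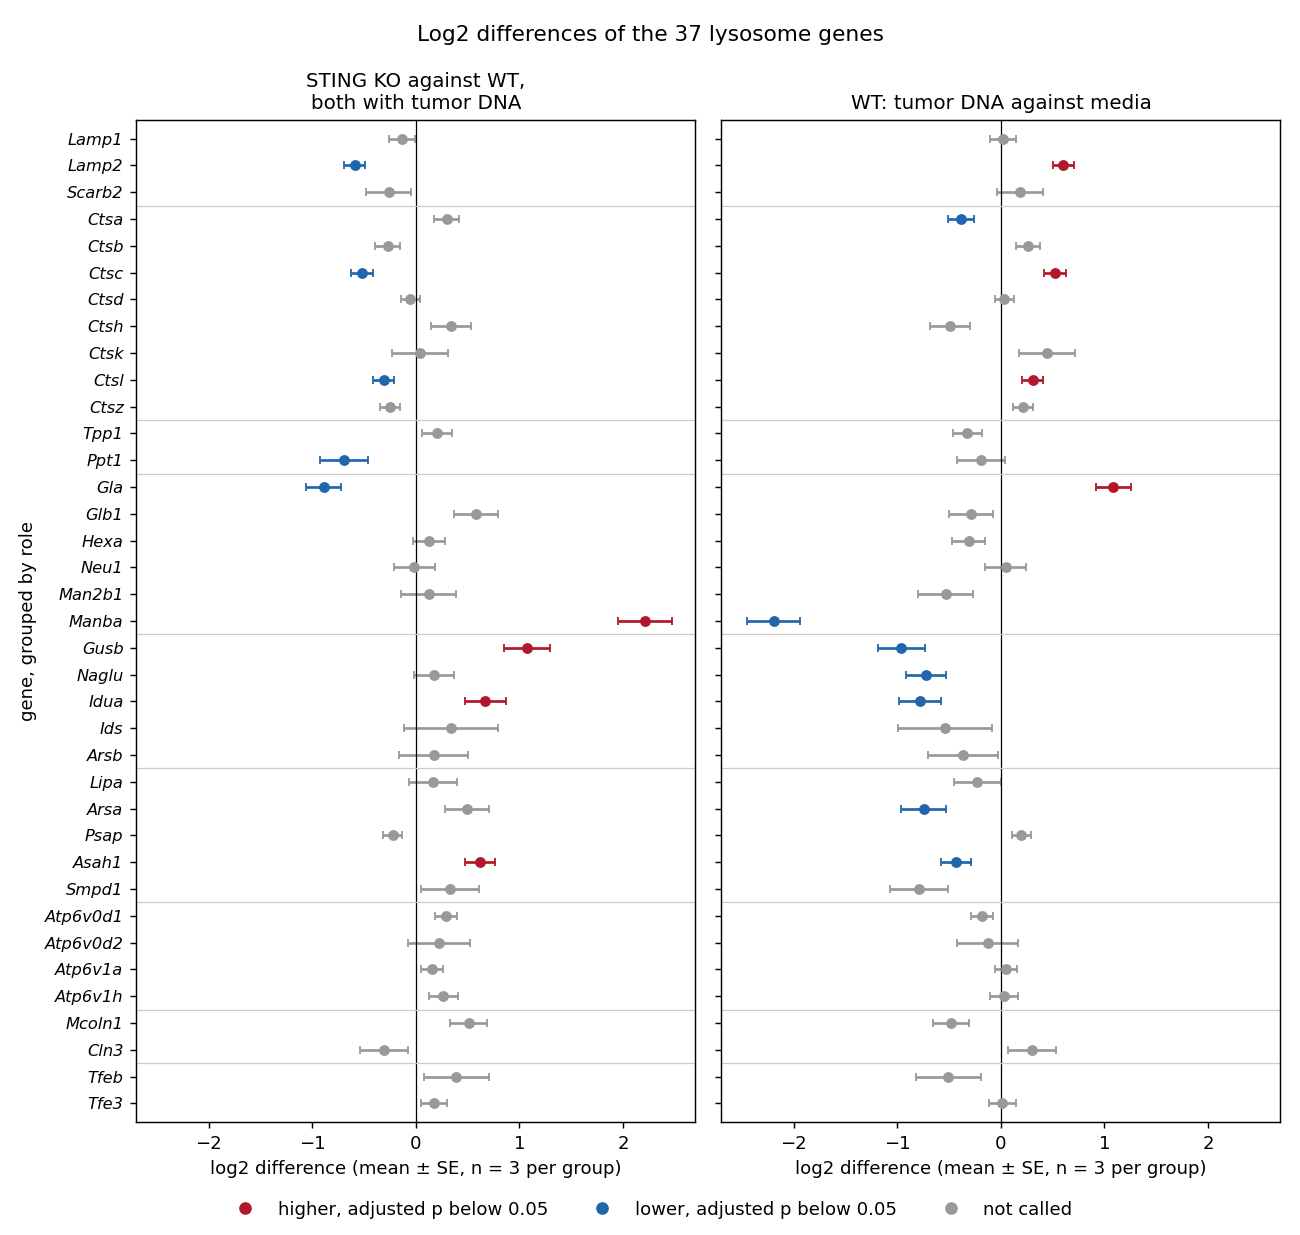
Log2 differences of the 37 members, grouped by role, for knockout against wild type under tumor DNA (left) and tumor DNA against media in wild type (right). Points are limma estimates and bars their standard errors, with 3 arrays per group, and coloured points passed an adjusted p below 0.05. The largest values are those of Manba, at 2.21 on the left and -2.19 on the right, with Gla and Lamp2 on the opposite side of 0 in each.

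Arrays of the same number deviated together. Fitted with the array number as a replicate block, the model called 19 members for tumor DNA against media (of all genes 44.8%). Of these 5 were higher (13.2% of genes) and 14 lower (31.6%). Between genotypes it called 16 members (43% of genes), 9 of them higher (29.9%) and 7 lower (13%). For knockout DNA against wild-type media it called 0 members and 1.4% of genes. The scaling of the arrays bore on direction. Centring each array on the median of the genes tested, chosen after seeing the data, moved the median gene to 0.24 for tumor DNA against media and to -0.20 between genotypes. All genes then split into 2759 higher and 1080 lower for tumor DNA against media (1251 and 2973 as deposited), and into 1092 higher and 2492 lower between genotypes (2746 and 1224 as deposited). Of the members, 13 were then called for tumor DNA against media (30.5% of genes), 12 higher (21.9%) and 1 lower (Manba, 8.58%). Those higher were Lamp2, Ctsb, Ctsc, Ctsd, Ctsk, Ctsl, Ctsz, Gla, Psap, Atp6v1a, Atp6v1h and Tfe3. Between genotypes 11 were called (28.5% of genes), 1 higher (Manba, 8.68%) and 10 lower (19.8%). Those lower were Lamp1, Lamp2, Ctsb, Ctsc, Ctsd, Ctsl, Ctsz, Ppt1, Gla and Psap. Small differences below therefore have a direction only relative to the submitters' scaling. Gla, Lamp2 and Manba kept their calls and directions in both comparisons under each of the 24 alternatives run.

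**Figure D2:**
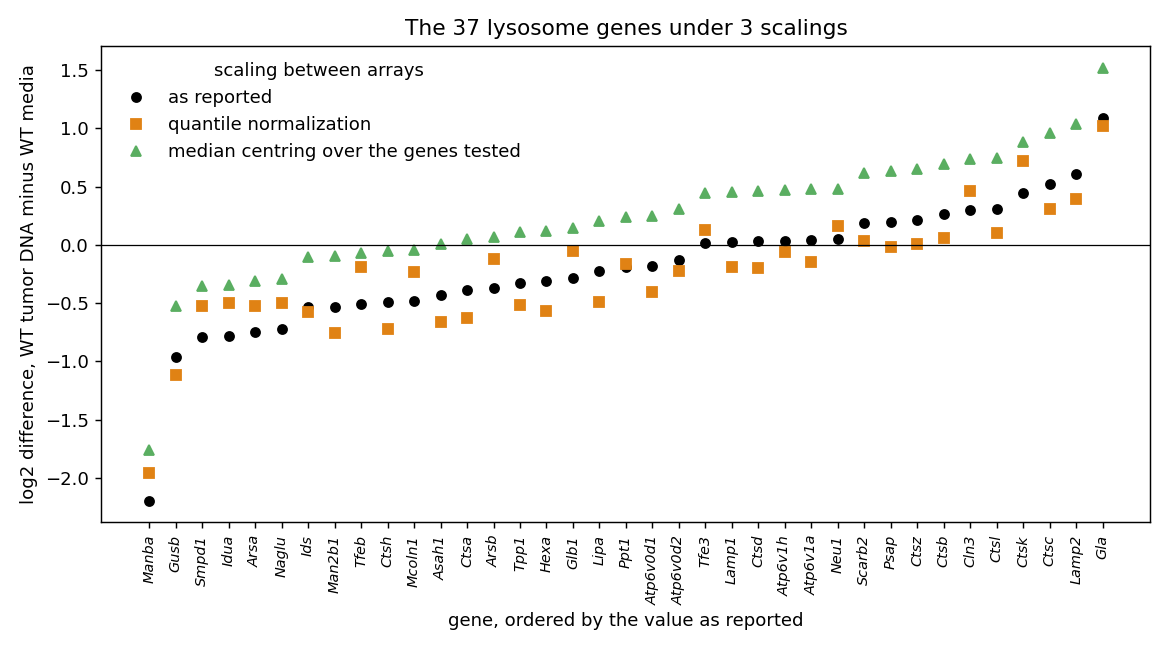
Log2 differences of the 37 members in wild-type cells, tumor DNA minus media, under the deposited scaling, quantile normalization and centring on the genes tested. Members are ordered along the horizontal axis by the value as reported. Centring shifts every member upward, while Manba stays below 0 and Gla and Lamp2 above 0 under all 3 scalings.

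Of the 3 membrane glycoproteins, which line the lysosome, Lamp2 changed in both comparisons. Lamp2 makes the receptor for chaperone-mediated autophagy as an isoform, and its gene lies at chrX:38399647-38456460 (GRCm38.p6). Its signals were 17015, 14459.5 and 17094 in KO DNA arrays, 26099, 23895 and 22969.9 in WT DNA arrays, and 16535, 15431 and 15982 in WT media arrays. Its WT DNA values were the highest and did not overlap either other group. Lamp2 rose with tumor DNA in wild type, 0.60 ± 0.10 (SE, adjusted p = 0.0024), and was lower in knockout cells under DNA, -0.59 ± 0.10 (SE, adjusted p = 0.0023). Its other 3 probe sets had estimates of the same sign, 0.58 to 0.90 with tumor DNA and -0.97 to -0.57 in knockout cells.

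Lamp1, the other abundant membrane glycoprotein, had signals of 19709.8, 15504 and 17525 in KO DNA arrays, 20700.0, 17653 and 19296 in WT DNA arrays, and 20779.6, 16961 and 19126 in WT media arrays. The groups overlapped, and neither comparison passed: 0.02 ± 0.12 (SE, adjusted p = 0.91) for tumor DNA, and -0.13 ± 0.12 (SE, adjusted p = 0.45) for the knockout. Under centring on the genes tested Lamp1 was called lower in the knockout, -0.53 (limma adjusted p = 0.031). Scarb2, which carries glucocerebrosidase to the lysosome, averaged 5015 ± 1458 in KO DNA, 5914 ± 974 in WT DNA and 5209.6 ± 950.0 in WT media (SD, n = 3 each), and passed in neither comparison.

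Among the 8 cathepsins, the lysosomal proteases, 2 rose and 1 fell with tumor DNA, and 2 were lower in knockout cells. Of all genes tested, 9.94% were called higher and 23.6% lower with tumor DNA, and 9.73% lower in the knockout. Ctsc, the dipeptidyl peptidase that activates granule serine proteases, read 20381, 16752 and 18901 in KO DNA arrays, 28490.3, 27486 and 24434 in WT DNA arrays, and 19287, 18654 and 17919 in WT media arrays. Each WT DNA array lay above all arrays of both other groups. Ctsc rose with tumor DNA, 0.52 ± 0.11 (SE, adjusted p = 0.005), and was lower in the knockout, -0.52 ± 0.11 (SE, adjusted p = 0.0048). Its other probe sets gave larger estimates, 1.36 and 1.56 with DNA and -2.03 and -2.25 in knockout cells. The first call ended only without the 3 arrays numbered 3 (adjusted p = 0.054) and the second only without those numbered 2 (adjusted p = 0.067), among the 24 alternatives.

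Ctsl, a cysteine endopeptidase that also trims the invariant chain of MHC class II in some cells, was called by a narrow margin. Its signals were 20642, 18844 and 23223 in KO DNA arrays, 26983, 25267 and 25349.7 in WT DNA arrays, and 21638, 19618 and 21398 in WT media arrays, again with WT DNA above both other groups. The difference was 0.31 ± 0.10 (SE, adjusted p = 0.04), for tumor DNA, and -0.31 ± 0.10 (SE, adjusted p = 0.04), in the knockout. Leaving out a single array ended the first call for every array except knockout arrays 2 and 3 and the second for each of the 9, with adjusted p up to 0.15 and 0.19. With all arrays kept, both calls also ended under quantile normalization, median centring, no filter and no intensity trend. For tumor DNA the difference was as low as 0.10 over the alternatives run. The adjusted p was as high as 0.7, reached with the mean of the probe sets. Its other probe set read 55.4 to 243.7 in KO DNA, 8.5 to 36.5 in WT DNA and 17.3 to 19.2 in WT media, and differed by -0.04 with DNA and by 1.97 in knockout cells. That probe set had a mean log2 of 5.74, just above the filter value of 5.67, and its highest signals were those of KO DNA. The knockout difference of Ctsl thus differed in direction between its probe sets, but the contrary value rests on low signals. Whether these exceeded background was not tested.

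Ctsa, a carboxypeptidase that also shields beta-galactosidase and sialidase from degradation, went the other way. Its signals were 12368, 10054 and 11864 in KO DNA arrays, 9703, 8357 and 9811 in WT DNA arrays, and 13016, 12441 and 11028 in WT media arrays, with WT DNA the lowest. It fell with tumor DNA, -0.39 ± 0.12 (SE, adjusted p = 0.036), a call that ended without wild-type media array 1 or 2, any WT DNA array or knockout array 3 (adjusted p up to 0.19). With all arrays kept it also ended under median centring, no filter, no intensity trend, the mean of the probe sets or the fit on 6 arrays (up to 0.27). The fall turned into 0.05 under centring on the genes tested. The knockout difference was 0.30 ± 0.12 (SE, adjusted p = 0.097), and with the replicate block adjusted p = 0.048.

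Ctsb, an abundant cysteine protease that has been linked to inflammasome activity after lysosomal damage, read 21206, 16718 and 20800.0 in KO DNA arrays, 25065, 22862 and 22676 in WT DNA arrays, and 21342, 18169.5 and 19511 in WT media arrays. The WT DNA arrays were the highest, yet the differences of 0.26 ± 0.12 (SE, adjusted p = 0.12), for tumor DNA and of -0.27 ± 0.12 (SE, adjusted p = 0.11), in the knockout did not pass. With the replicate block they passed, adjusted p = 0.038 and adjusted p = 0.033. Its 5 probe sets above the filter split by direction with tumor DNA: 3 lay between 0.26 and 0.36, and the others at -0.47 and -0.40. The direction for Ctsb thus differed between its probe sets.

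Ctsd, the main aspartyl protease of the lysosome, read 18961, 16901 and 19464 in KO DNA arrays, 18319, 19625 and 19434 in WT DNA arrays, and 19220.5, 18439 and 18447 in WT media arrays. These groups overlapped, with 0.03 ± 0.09 (SE, adjusted p = 0.82) for tumor DNA and -0.05 ± 0.09 (SE, adjusted p = 0.69) for the knockout. Centring on the genes tested gave a limma call for Ctsd in both comparisons. It was 0.47 with tumor DNA (adjusted p = 0.013) and -0.45 in the knockout (adjusted p = 0.016). Of the remaining cathepsins none passed: Ctsz, a carboxypeptidase, averaged 22669 ± 2405 in KO DNA, 26853 ± 1129.5 in WT DNA and 23168 ± 734 in WT media (SD, n = 3 each). Ctsk, the collagen-degrading cathepsin of osteoclasts, averaged 725 ± 74.3 in KO DNA, 733 ± 265 in WT DNA and 526 ± 141 in WT media (SD, n = 3 each). Ctsh, an aminopeptidase, averaged 10108 ± 2414 in KO DNA, 7856 ± 760.2 in WT DNA and 11159.6 ± 2365 in WT media (SD, n = 3 each), with WT DNA the lowest. With the replicate block Ctsh passed in both comparisons, adjusted p = 0.0068 for tumor DNA and adjusted p = 0.035 for the knockout.

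Glycosidases, which strip sugars from glycoproteins and glycolipids, held the largest changes in each direction among the 37 members. Gla, alpha-galactosidase A, removes terminal galactose from globotriaosylceramide and is the enzyme lost in Fabry disease. The gene lies at chrX:134588169-134601005 (GRCm38.p6), and its signals were 2533, 2411 and 3050.4 in KO DNA arrays, 5653, 4439.8 and 4765 in WT DNA arrays, and 2247, 1997 and 2752 in WT media arrays. All 3 WT DNA arrays lay above every other array. Gla rose with tumor DNA, 1.09 ± 0.17 (SE, adjusted p = 0.0015), a 2.12-fold higher level, and was lower in the knockout, -0.89 ± 0.17 (SE, adjusted p = 0.0032). The rises for the arrays numbered 1, 2 and 3 were 1.33, 1.15 and 0.79. A further probe set above the filter gave 1.38 and -1.20.

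Manba, beta-mannosidase, acts at the last step of the breakdown of N-linked glycans and lies at chr3:135485611-135571404 (GRCm38.p6). Its signals were 1829.6, 1414 and 1445 in KO DNA arrays, 274, 400.1 and 306 in WT DNA arrays, and 2231, 1456 and 1108 in WT media arrays. For Manba the WT DNA arrays were the lowest by a wide margin, and the other groups overlapped each other. Manba fell with tumor DNA, -2.19 ± 0.26 (SE, adjusted p = 0.00051), and was higher in knockout cells under DNA, 2.21 ± 0.26 (SE, adjusted p = 0.00037), 4.63-fold. Within the numbered trios the falls were -2.96, -1.82 and -1.80, and the knockout differences were 2.67, 1.78 and 2.18. It was the only member called lower with tumor DNA, and the only member called higher in the knockout, under centring on the genes tested. Manba had a single probe set on the array.

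**Figure D3:**
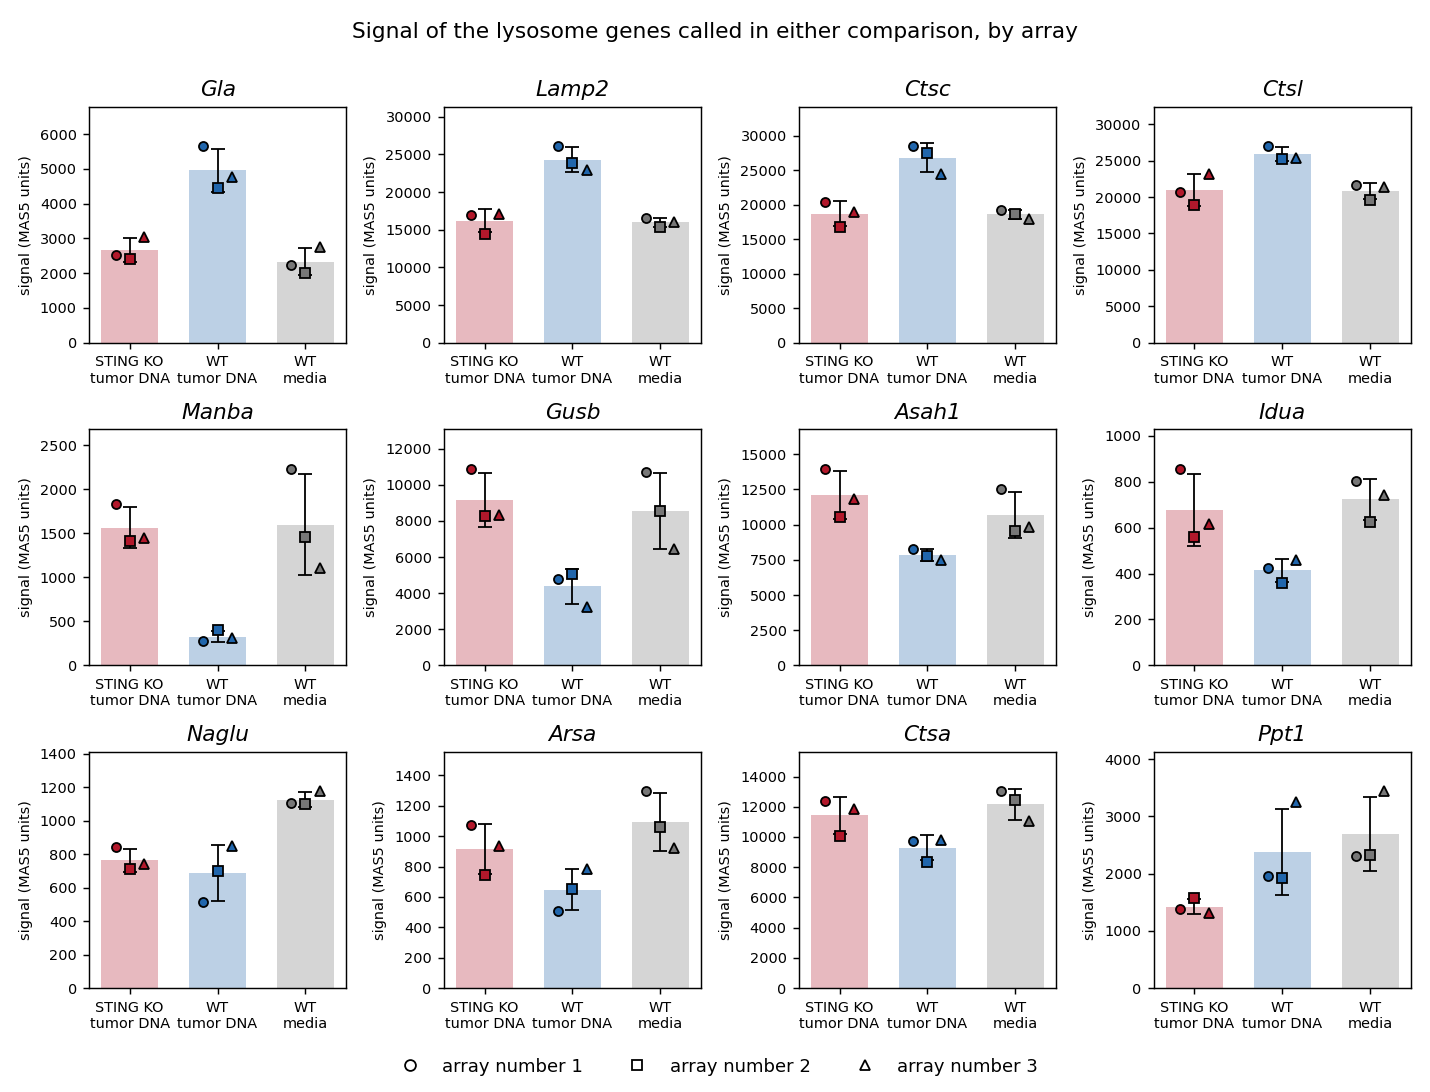
MAS5 signal on each array for the 12 members called in either comparison (linear axes from 0, bars group means, error bars SD, n = 3 arrays per group, marker shape the array's number). The WT DNA arrays stand apart from both other groups in 9 panels. KO DNA is the lowest for Ppt1, and KO DNA and WT DNA overlap for Naglu and Arsa.

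The other 4 glycosidases passed in neither comparison. Glb1, the beta-galactosidase of ganglioside breakdown, averaged 1090.0 ± 128 in KO DNA, 735 ± 172 in WT DNA and 888 ± 133 in WT media (SD, n = 3 each), and passed in the knockout with the replicate block (adjusted p = 0.028). Hexa, the alpha subunit of beta-hexosaminidase, averaged 12080.5 ± 2441 in KO DNA, 10923 ± 464 in WT DNA and 13635 ± 1720.2 in WT media (SD, n = 3 each), and passed for tumor DNA with the block (adjusted p = 0.036). Neu1, the lysosomal sialidase, averaged 1389 ± 38.2 in KO DNA, 1409.5 ± 138 in WT DNA and 1397 ± 411 in WT media (SD, n = 3 each). Man2b1, the alpha-mannosidase, averaged 8629 ± 2293 in KO DNA, 7880.3 ± 1936 in WT DNA and 11570.5 ± 3771 in WT media (SD, n = 3 each), and passed for tumor DNA with the block (adjusted p = 0.0027). The further Man2b1 probe set gave -1.70 with tumor DNA and 1.16 in the knockout.

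All 5 hydrolases of glycosaminoglycans, the long sugar chains of the matrix, had negative estimates for tumor DNA, and 3 of them passed. Of all 12586 genes tested 7697 had negative estimates and 23.6% were called lower. Under centring on the genes tested none of the 3 calls remained, and the estimate of Arsb was 0.066. Gusb, beta-glucuronidase, lies at chr5:129989011-130003049 (GRCm38.p6) and read 10887, 8258 and 8313 in KO DNA arrays, 4802, 5081 and 3257 in WT DNA arrays, and 10691, 8527 and 6464 in WT media arrays. Here too all WT DNA arrays lay below the other groups. Gusb fell with DNA, -0.96 ± 0.22 (SE, adjusted p = 0.0096), and was higher in the knockout, 1.07 ± 0.22 (SE, adjusted p = 0.0056). Its other probe set gave -0.79 and 1.14. Centring on the genes tested ended both calls (adjusted p = 0.11 and 0.051), as did leaving out the arrays numbered 2 for the first (adjusted p = 0.051).

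Idua, alpha-L-iduronidase, which starts on dermatan and heparan sulfate, read 856, 559 and 617 in KO DNA arrays, 422, 361 and 459 in WT DNA arrays, and 803, 625 and 740.5 in WT media arrays. Again WT DNA was the lowest group without overlap. Idua fell with DNA, -0.78 ± 0.20 (SE, adjusted p = 0.015), and was higher in the knockout, 0.67 ± 0.20 (SE, adjusted p = 0.028). The first call ended without wild-type media array 1 (adjusted p up to 0.11 with arrays left out), and the second without WT DNA array 1 or 2 or knockout array 1 or 3 (up to 0.12). Centring on the genes tested ended both (up to 0.23 and 0.35 over the settings that kept all arrays).

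Naglu, which removes N-acetylglucosamine from heparan sulfate, read 842, 711 and 740.0 in KO DNA arrays, 513, 700.4 and 849.6 in WT DNA arrays, and 1105, 1097 and 1174 in WT media arrays. It fell with tumor DNA, -0.73 ± 0.19 (SE, adjusted p = 0.016), and the WT DNA arrays lay below the media arrays. Quantile normalization or centring on the genes tested ended this call (adjusted p up to 0.22), as did leaving out the 3 arrays of any number (up to 0.099). The knockout difference did not pass and its groups overlapped, 0.17 ± 0.19 (SE, adjusted p = 0.53). Ids, iduronate sulfatase, averaged 3371 ± 1424 in KO DNA, 2777 ± 1598 in WT DNA and 3933 ± 1987 in WT media (SD, n = 3 each), and passed for tumor DNA with the replicate block (adjusted p = 0.035). Arsb, which desulfates dermatan sulfate, averaged 741 ± 365 in KO DNA, 624 ± 156 in WT DNA and 815 ± 232 in WT media (SD, n = 3 each), and passed in neither comparison.

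Of the 5 members that act on lipids, 2 fell with tumor DNA and 1 was higher in knockout cells. Among all genes tested, 23.6% were called lower with tumor DNA and 21.8% higher in the knockout. Asah1, acid ceramidase, which releases sphingosine from ceramide, read 13967, 10549 and 11837 in KO DNA arrays, 8300.3, 7753 and 7497 in WT DNA arrays, and 12538, 9576 and 9853 in WT media arrays. The WT DNA arrays were the lowest. Asah1 was higher in the knockout under DNA, 0.62 ± 0.14 (SE, adjusted p = 0.0093), a call lost when the number 3 arrays were dropped (adjusted p = 0.11) and under centring on the genes tested (0.34). For tumor DNA it fell by a smaller amount, -0.43 ± 0.14 (SE, adjusted p = 0.042). That call ended without wild-type media array 1 or 3, any WT DNA array or knockout array 3 (up to 0.19), and the difference turned into 0.0032 under centring on the genes tested.

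Arsa, arylsulfatase A, which desulfates sulfatide, read 1071, 746 and 935 in KO DNA arrays, 511, 652 and 782 in WT DNA arrays, and 1295, 1062 and 922 in WT media arrays. It fell with DNA, -0.75 ± 0.21 (SE, adjusted p = 0.024), and the call ended without wild-type media array 1 or 2 or WT DNA array 1 (up to 0.12). It ended with all arrays kept under quantile normalization (adjusted p = 0.085, and 0.056 with the block) and under centring on the genes tested, where the difference was -0.31 (adjusted p = 0.25). In the knockout the difference was 0.50 ± 0.21 (SE, adjusted p = 0.11). Psap, prosaposin, is cut into the saposins that present sphingolipids to their hydrolases. Its signals were 26672, 23379 and 26223 in KO DNA arrays, 30570.0, 28777 and 29487 in WT DNA arrays, and 27552, 24479 and 25554 in WT media arrays. Signals were the highest in WT DNA, but neither difference passed: 0.20 ± 0.09 (SE, adjusted p = 0.13) for tumor DNA, and -0.22 ± 0.09 (SE, adjusted p = 0.092) for the knockout. With the replicate block the knockout difference passed (adjusted p = 0.04).

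Lipa, the acid lipase of cholesteryl esters, averaged 12042 ± 4055 in KO DNA, 10356 ± 1431 in WT DNA and 12100.5 ± 1477 in WT media (SD, n = 3 each), and passed in neither comparison. Smpd1, acid sphingomyelinase, averaged 654 ± 109 in KO DNA, 543 ± 226 in WT DNA and 904 ± 131 in WT media (SD, n = 3 each). It passed for tumor DNA with the replicate block (adjusted p = 0.038), with falls of very unequal size between the numbered trios, -1.57, -0.58 and -0.22.

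Ppt1 and Tpp1 are the thioesterase and the tripeptidase whose loss causes childhood ceroid storage disease. Ppt1 read 1383, 1574 and 1314 in KO DNA arrays, 1958, 1926 and 3251 in WT DNA arrays, and 2309, 2321 and 3435 in WT media arrays. Here the knockout arrays, not the WT DNA arrays, were the lowest, with no overlap with either wild-type group. Ppt1 was lower in the knockout under DNA, -0.69 ± 0.23 (SE, adjusted p = 0.046), while tumor DNA in wild type gave -0.19 ± 0.23 (SE, adjusted p = 0.56). The knockout call ended without wild-type media array 1 or 2, WT DNA array 1 or 3, or any knockout array (up to 0.22). With all arrays kept it also ended with no filter, no intensity trend, the mean of the probe sets or the fit on 6 arrays (up to 0.26). Against wild-type media the knockout difference was -0.89 (-1.41 to -0.37). The other Ppt1 probe sets above the filter gave -0.04 and -0.21 between genotypes, and -0.39 and -0.41 against wild-type media. Tpp1 averaged 7609 ± 179 in KO DNA, 6635 ± 945 in WT DNA and 8313 ± 1189.5 in WT media (SD, n = 3 each), and passed for tumor DNA with the block (adjusted p = 0.049).

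None of the 4 proton pump subunits passed in either comparison under the deposited scaling without the block. Under centring on the genes tested Atp6v1a and Atp6v1h were called higher with tumor DNA (limma adjusted p = 0.025 and 0.035). Atp6v0d1, the widely expressed d subunit of the membrane part, averaged 9643 ± 854 in KO DNA, 7881 ± 389 in WT DNA and 8954 ± 298 in WT media (SD, n = 3 each), and passed in the knockout with the block (adjusted p = 0.045). Its relative Atp6v0d2, abundant in osteoclasts and macrophages, averaged 5000.4 ± 639 in KO DNA, 4439 ± 1594 in WT DNA and 4851 ± 1671 in WT media (SD, n = 3 each). Atp6v1a, the catalytic subunit, averaged 7942 ± 603 in KO DNA, 7107 ± 391 in WT DNA and 6879.7 ± 109.7 in WT media (SD, n = 3 each). Atp6v1h, a regulatory subunit, averaged 4611 ± 281 in KO DNA, 3848 ± 463 in WT DNA and 3760.4 ± 430.1 in WT media (SD, n = 3 each).

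Mcoln1, the calcium channel through which lysosomes signal to TFEB, read 795, 825 and 873 in KO DNA arrays, 543, 669 and 532 in WT DNA arrays, and 771, 995 and 701 in WT media arrays. The WT DNA arrays were the lowest, and neither difference passed without the block: -0.48 ± 0.18 (SE, adjusted p = 0.06) for tumor DNA, and 0.51 ± 0.18 (SE, adjusted p = 0.051) for the knockout. With the block both passed, adjusted p = 0.026 and adjusted p = 0.021. Cln3, a membrane protein of the late endosome and lysosome, averaged 975 ± 143 in KO DNA, 1246 ± 393 in WT DNA and 978 ± 111 in WT media (SD, n = 3 each), and passed in neither comparison.

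The transcription factors were not called in either comparison under the deposited scaling. Tfeb read 516, 232 and 308 in KO DNA arrays, 252, 307 and 203 in WT DNA arrays, and 506, 284 and 331 in WT media arrays. The arrays of each group scattered widely and overlapped, -0.51 ± 0.31 (SE, adjusted p = 0.24) for tumor DNA, and 0.39 ± 0.31 (SE, adjusted p = 0.38) for the knockout. Tfe3 read 1744, 1740.1 and 1816 in KO DNA arrays, 1625, 1405 and 1671 in WT DNA arrays, and 1489.8, 1589.7 and 1567 in WT media arrays. Its wild-type groups overlapped, at 0.01 ± 0.13 (SE, adjusted p = 0.95) for tumor DNA, and the knockout difference was 0.18 ± 0.13 (SE, adjusted p = 0.34). Under centring on the genes tested Tfe3 was called higher with tumor DNA, 0.45 (limma adjusted p = 0.044). These factors are controlled largely by their location in the cell, which an mRNA array does not measure.

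**Figure D4:**
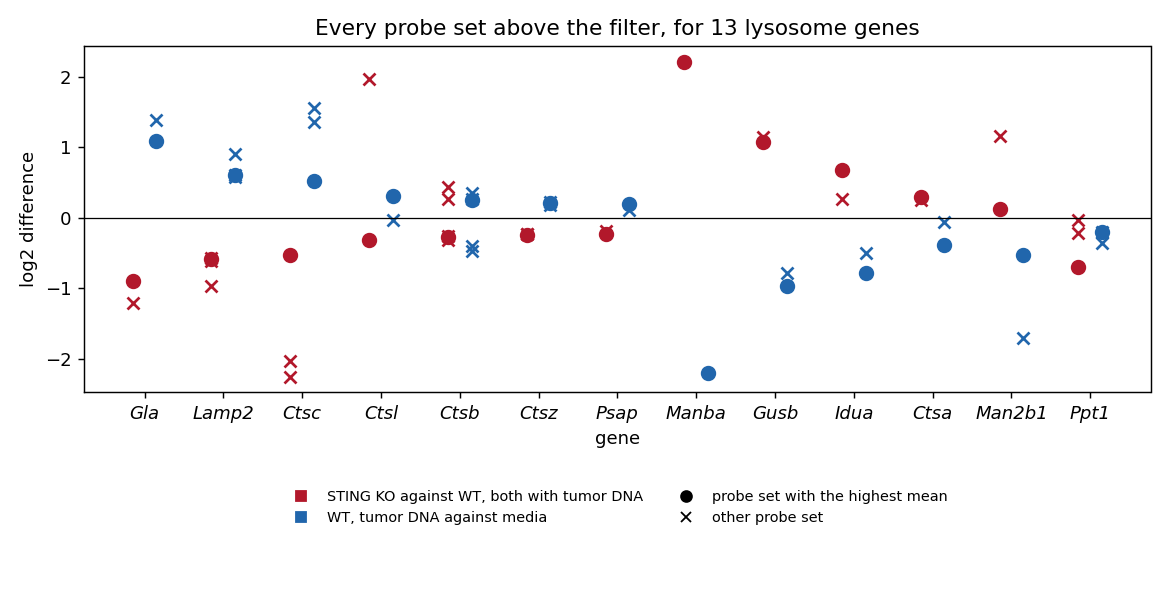
Log2 differences of every probe set above the filter for 13 members, for knockout against wild type under tumor DNA and for tumor DNA against media in wild type. Circles are the probe sets used and crosses the others. Of 11 other probe sets of members called between genotypes 10 went the same way as the one used, and of 10 for tumor DNA 9 did. The exception in each was Ctsl, whose other probe set lay just above the filter.

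Knockout cells given tumor DNA were also set against untreated wild-type cells. For the members whose calls were the steadiest, the estimates with their 95% confidence intervals were 0.20 (-0.17 to 0.57) for Gla, 0.01 (-0.21 to 0.24) for Lamp2 and 0.00 (-0.23 to 0.24) for Ctsc. They were 0.02 (-0.56 to 0.59) for Manba and 0.11 (-0.39 to 0.61) for Gusb. The other Ctsc probe sets gave -0.67 and -0.69 here, with KO DNA below WT media without overlap, so the Ctsc estimate differed between its probe sets. Of the other members that fell with tumor DNA, the estimates were -0.55 (-0.98 to -0.12) for Naglu, -0.25 (-0.73 to 0.23) for Arsa, -0.11 (-0.55 to 0.34) for Idua, -0.09 (-0.37 to 0.19) for Ctsa and 0.19 (-0.13 to 0.51) for Asah1. Smpd1 gave -0.46 (-1.08 to 0.16). These intervals leave room for differences of up to about the size of their bounds, and the missing calls do not show equal levels. KO DNA and WT media arrays did not overlap for 6 of the 37 members, against 13.8% of all genes. At an unadjusted p below 0.05 stood Ppt1 and Naglu, both with estimates below 0.

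Other genes of lysosomal biology, from lists drawn up by function, were also called in both directions. For reading the counts, the shares of all genes tested were 9.94% higher and 23.6% lower for tumor DNA, and 21.8% higher and 9.73% lower in the knockout. Of 24 other hydrolases and cofactors, 1 rose and 9 fell with tumor DNA, and 6 were higher and 2 lower in the knockout. Hyal2, a hyaluronidase, fell by 2.05 on the log2 scale with DNA (adjusted p = 0.0013) and was 2.23 higher in the knockout (adjusted p = 0.00076). Dnase2a, the acid DNase that digests engulfed DNA, fell by 1.78 with DNA (adjusted p = 0.0026, and 0.061 without the arrays numbered 3), and Hgsnat, an acetyltransferase of heparan sulfate breakdown, fell by 1.16 (adjusted p = 0.0038). In the knockout Dpp7, a dipeptidyl peptidase, was 1.13 higher in the knockout (adjusted p = 0.0016), and the cholesterol carrier Npc2 was lower in the knockout at -0.69 (adjusted p = 0.0048, and 0.072 without the arrays numbered 3).

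Of 15 other membrane proteins and channels tested, 3 rose and 2 fell with DNA, and 4 were higher and 2 lower in the knockout. Clcn7, the chloride-proton exchanger of the lysosome, rose by 1.35 (adjusted p = 0.00096) and was lower in the knockout at -1.46 (adjusted p = 0.00056). Tmem192 rose by 0.77 (adjusted p = 0.0051) and was lower in the knockout at -0.73 (adjusted p = 0.0061), and Tpcn1, a cation channel, fell by 1.59 (adjusted p = 0.0036). Npc1, the cholesterol transporter of the membrane, was 0.73 higher in the knockout (adjusted p = 0.012). Of the calls on Tmem192, Tpcn1 and Npc1, each ended without the arrays numbered 3 (up to 0.067, 0.057 and 0.11), and that of Npc1 under centring on the genes tested (0.21).

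Of 13 other proton pump subunits, 3 rose and 1 fell with DNA, and 1 was higher and 2 lower in the knockout. Tcirg1, the a3 subunit isoform of lysosomes and osteoclasts, rose by 0.85 (adjusted p = 0.00084) and was lower in the knockout at -0.67 (adjusted p = 0.0019). Atp6v1d rose by 0.88 (adjusted p = 0.0021) and was lower in the knockout at -0.71 (adjusted p = 0.0048). The knockout call of Tcirg1 ended without the arrays numbered 3 (0.061) and that of Atp6v1d without those numbered 2 (0.077). Atp6ap1, an accessory subunit, fell by 0.39 with DNA (adjusted p = 0.027), which ended without wild-type media array 1 or 2 or WT DNA array 1 or 3 and turned into 0.04 under centring on the genes tested. It was 0.44 higher in the knockout (adjusted p = 0.017), which ended without knockout array 1 or 3 or WT DNA array 3.

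Of 9 genes of mannose phosphate sorting, 2 rose and 4 fell with DNA, and 3 were higher and 2 lower in the knockout. Gnptab, which encodes the enzyme that adds the tag, rose by 0.81 (adjusted p = 0.003) and was lower in the knockout at -0.82 (adjusted p = 0.0026). The sorting adaptor Gga2 fell by 0.89 (adjusted p = 0.0021) and was 0.93 higher in the knockout (adjusted p = 0.0014). The sorting receptor Sort1 fell by 0.96 (adjusted p = 0.0035) and was 0.83 higher in the knockout (adjusted p = 0.0065). Both calls of Gnptab ended without the arrays numbered 3 (0.055 and 0.067), as did the knockout call of Sort1 (0.058), also lost on averaging its probe sets or under centring on the genes tested (0.093 each).

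Of 17 nutrient-sensing genes at the lysosome, 1 rose and 5 fell with DNA, and 4 were higher and 1 lower in the knockout. Lamtor4, a subunit of the Ragulator complex that anchors mTORC1, fell by 1.37 (adjusted p = 0.00042) and was 1.26 higher in the knockout (adjusted p = 0.00042). Lamtor2, of the same complex, fell by 0.68 (adjusted p = 0.0096), and by 0.24 under centring on the genes tested (adjusted p = 0.25). Tsc1, an inhibitor of mTORC1 activation, fell by 0.78 (adjusted p = 0.0096) and was 0.83 higher in the knockout (adjusted p = 0.0073), and the GTPase Rragc was lower in the knockout at -0.54 (adjusted p = 0.0077). The tumor DNA call of Tsc1 ended under quantile normalization, centring on the genes tested and the mean of its probe sets (up to 0.22), its knockout call under the last 2 of these (up to 0.45) and that of Rragc under quantile normalization or median centring (up to 0.068). Without the arrays numbered 3 each of these calls also ended (up to 0.13).

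Of 19 autophagy genes, 2 rose and 7 fell with DNA, and 5 were higher (26.3%, against 21.8% of all genes) and 0 lower in the knockout. Sqstm1, the cargo receptor p62, rose by 0.99 (adjusted p = 0.0071), a call that ended without the arrays numbered 1 or 3 (up to 0.08). Atg5 fell by 0.93 (adjusted p = 0.0022) and was 0.79 higher in the knockout (adjusted p = 0.0039), and Atg9a fell by 0.94 (adjusted p = 0.0072). The fall of Atg9a ended without the arrays numbered 3 (0.079) and under centring on the genes tested (0.054), and the knockout call of Atg5 without those numbered 2 or 3 or under that centring (up to 0.088). Gabarapl1, an Atg8 relative, was 1.24 higher in the knockout (adjusted p = 0.011), and the kinase Ulk1 was 0.87 higher in the knockout (adjusted p = 0.029), a call that ended without WT DNA array 1 or 3 or knockout array 1. The calls of Gabarapl1 and Ulk1 also ended without the arrays numbered 3 (0.13 and 0.15) and under centring on the genes tested (0.076 and 0.18), that of Ulk1 further under quantile normalization (0.12). For knockout DNA against wild-type media each of these 6 lists had 0 calls, at 0.429% for all genes.

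Of 4 cystatins, inhibitors of cysteine cathepsins, 2 rose with DNA and the same 2 were lower in the knockout. Cst7, cystatin F, which is targeted to lysosomes and inhibits Ctsc in other cells, read 113, 273 and 177 in KO DNA arrays, 5175, 1901 and 2340.0 in WT DNA arrays, and 139, 272 and 160.0 in WT media arrays. WT DNA stood far above both other groups, 3.85 ± 0.42 (SE, adjusted p = 0.0004) for tumor DNA, and -3.89 ± 0.42 (SE, adjusted p = 0.00027) for the knockout. Stfa3, a stefin, rose by 0.90 (adjusted p = 0.034), a call that ended without any WT DNA array or wild-type media array 2 or 3, and was lower in the knockout at -1.68 (adjusted p = 0.0019).

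Summed signals of the markers of some cell types that such cultures can hold also differed between groups. Of 8 dendritic cell markers 7 lay above the filter (Flt3 did not), with a summed signal of 8877 to 10180 in KO DNA, 9909 to 13510 in WT DNA and 7188 to 9399 in WT media. For macrophages 7 of 7 measured markers lay above it, with sums of 53460 to 69480 in KO DNA, 72000 to 92430 in WT DNA and 53500 to 69160 in WT media. The macrophage and the T and NK cell sums were higher in WT DNA without overlap. The macrophage markers did not move together: with tumor DNA 2 were called higher (Fcgr1 and Cd14), 0 lower and 5 not called. The median log2 difference of these markers was 0.058, and 3 of the 7 were below 0, down to -0.93 for Mrc1. The dendritic cell markers were split as well: with tumor DNA 1 was called higher, 1 lower and 5 not called. Over all 8 dendritic cell markers the median log2 difference was -0.013, and 5 were below 0. In each of these lists 28.6% of the markers tested were called with tumor DNA. Of all genes tested 33.6% were, so the markers were not called more often than other genes. The dendritic cell sum was nevertheless higher in WT DNA than in WT media, without overlap. Neutrophil sums (7 of 7 markers) were 23600 to 27020 in KO DNA, 19200 to 61300 in WT DNA and 13200 to 47460 in WT media. For osteoclasts (6 of 7 markers) they were 11800 to 18220 in KO DNA, 13280 to 20210 in WT DNA and 12950 to 23450 in WT media. T and NK cell sums were 213 to 290 in KO DNA, 1114 to 1948 in WT DNA and 215 to 315 in WT media, with 3 of 7 markers above the filter and Cd3e, Cd3g, Nkg7 and Ncr1 below it. Mast cell and basophil sums (5 of 7) were 265 to 281 in KO DNA, 563 to 1448 in WT DNA and 384 to 1119 in WT media. B cell sums (4 of 5) were 538 to 1117 in KO DNA, 1169 to 4052 in WT DNA and 1147 to 4466 in WT media, so both were lowest in KO DNA. Fibroblast sums (5 of 6) overlapped, at 1066 to 6494 in KO DNA, 719 to 4595 in WT DNA and 710 to 5546 in WT media. The part of these marker differences in the lysosomal results was not tested.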

How the data were processed

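The deposited table held 1 linear signal intensity per probe set and array, made with MAS5 per the submitters' processing notes (version and settings not given in the sources used here). Of its 45101 probe sets, 64 were controls, and the platform annotation gave 1 symbol for 34945, several for 932 and none for 9160, and 34754 entrez numbers matched RefSeq, changing 0 symbols. Detection calls were not used here. Signals were taken as log2(signal + 16). A filter at the 40th percentile of the mean over arrays (5.67) left 27022 probe sets and 12586 genes.

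Linear models over all 9 arrays were fitted with limma 3.58.1 in R 4.3.3 (lmFit, eBayes with an intensity trend), with 2-sided tests and Benjamini-Hochberg adjustment over the 12586 genes per comparison. Calls are at an adjusted p below 0.05. SD is over the 3 arrays of a group, whose number limits the precision. SE and the 95% confidence intervals come from limma's spread, estimated over all 9 arrays with eBayes. The intervals are not adjusted for the number of genes. No pair of arrays held identical values. Replicate numbers come from the sample titles. Residuals of arrays with the same number correlated at 0.17 to 0.49 over 9 pairs and of arrays differing in number and group at -0.42 to 0.14 over 18, and 9 of 9 arrays correlated best with their own number, so results of a replicate block on that number stand beside each call it changes. On data simulated for 12586 genes with 200 changed, the model called 35% of genes changed by 1 log2 unit and 80% of those changed by 2, with 0 in the wrong direction. The simulated arrays had independent noise and far fewer changed genes than the 33.6% called for tumor DNA against media. These shares therefore do not give the fraction of real changes found in these data.

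The members, gene lists and tests were chosen with earlier results of these data known. Values per array are given for Tfeb, Tfe3, Mcoln1, Lamp1, Lamp2, Ctsb, Ctsd and Psap and for up to 6 called members per direction and comparison. Up to 3 called genes per pathway list are named. Asah1 for tumor DNA in wild type, Cst7's arrays, Ppt1 and Naglu for knockout DNA against media, and cell type markers below the filter are named beyond that rule, after their values were seen. Promoter windows and gene positions are those of RefSeq for GRCm38.p6. Motifs were searched with Python 3.11.15. Alternatives changed the offset, scaling, filter, probe set choice, variance model, arrays and pairing.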

Additional observations from a re-analysis of the deposited data

How the results depend on the processing

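Leaving out 1 array or the 3 arrays of a number gave 4 to 11 members called for tumor DNA against media in wild type (1489 to 4209 genes), 5 to 8 between genotypes (1368 to 3930 genes) and 0 for knockout DNA against wild-type media (4 to 129 genes). The members' medians then ranged over -0.24 to -0.11, 0.084 to 0.22 and -0.081 to 0.054. The replicate block moved the counts to 19, 16 and 0 members, and to 176 genes for knockout DNA against media, where 54 were called without it. The block with quantile normalization gave 18, 15 and 1 members (Ppt1, lower) and 194 genes in the last comparison, and the fit on only the 6 arrays of that comparison gave 30 genes. Centring on the median of the genes tested, which like the combined setting was chosen after seeing the data, turned the members' median into 0.24 for tumor DNA against media and -0.23 between genotypes. It turned the tumor DNA differences of Ctsa, Asah1 and Atp6ap1 into 0.046, 0.0032 and 0.042 (adjusted p = 0.84, 0.99 and 0.82). Averaging all probe sets of a gene turned the knockout difference of Ctsl into 0.83 (adjusted p = 0.027), its other probe set reading higher in KO DNA than in either wild-type group. That probe set lay just above the filter. The cause of the other shifts was not tested. Over the 24 alternatives and the 37 members in 3 comparisons, 2481 values kept their side of the threshold, 112 lost a call and 68 gained one. A further 3, called before or after the change, changed direction. Changes of direction among values called in neither setting were not counted. Of the 11 members called for tumor DNA and the 9 called between genotypes, 3 in each (Gla, Lamp2 and Manba) never lost the call. With 3 arrays a group and no detection calls, whether a low signal exceeded background was not tested. The array measures mRNA, and neither enzyme activity nor protein amount was measured.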
